A study of Mus musculus with 3 samples.

Results

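The genes described here encode the machinery by which cells display peptides to T cells. They are B2m, H2-K1, H2-D1, Tap1, Tap2, Tapbp, Psmb8, Psmb9, Nlrc5 and Cd74, 10 of the 17226 genes listed in at least 1 of the 3 single-cell tables. The genes were chosen by name, for their function, and their values were read as UMIs (unique molecular identifiers, each standing for 1 captured transcript end whatever the transcript's length), summed over the cells of a class in each library. Nlrc5 is not listed in the table for 5 weeks, so 9 of the 10 had a row in every library.

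In the MHC class I pathway, cytosolic proteins are cut by the proteasome, whose immunoproteasome form carries Psmb8 and Psmb9 in place of the constitutive subunits Psmb5 and Psmb6. The peptides are carried into the endoplasmic reticulum by the Tap1 and Tap2 transporter, loaded with the help of tapasin (Tapbp) onto a heavy chain such as H2-K1 or H2-D1 paired with beta-2 microglobulin (B2m), and shown at the cell surface. Nlrc5 is the transactivator of class I genes, and Cd74 is the invariant chain of class II, a pathway of macrophages, dendritic cells and B cells. Class I display by islet cells is best known from autoimmune diabetes, in which cytotoxic T cells recognise beta cells.

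Islets of Langerhans of C57/Bl6 mice were dissociated, sorted for live cells and measured by 10x Genomics 3′ single-cell RNA-seq. The Taf4+/+ library (genotype "Wild type" in the labels, here WT) came from 300 islets of 1 male mouse. The 2 mutant libraries (genotype "TAF4 KO") each came from 300 islets pooled from 2 male mice, taken 1 week or 5 weeks after Taf4 was inactivated in beta cells. In these mice a tamoxifen-inducible Cre under an insulin promoter acts on floxed Taf4 alleles. The classes below rest on hormone RNA and not on lineage, so a cell in which the Cre acted may be counted as alpha, delta or other if its hormones differ. The mice were 11 to 13 weeks old when tamoxifen was injected on 3 days. The study's control Taf4+/+ animals carried the Cre without floxed alleles and received tamoxifen too, while the label of the WT library gives only its genotype as wild type. With 1 library per condition there is no replicate. No test between conditions was possible, each interval below is a 95% interval that covers counting error only, and a difference between 2 libraries compares those libraries.

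The libraries held 12000, 2295 and 11229 barcodes for WT, 1 week and 5 weeks, with 19472212, 23131247 and 39408284 UMIs. Between 2 and 33 barcodes were shared by a pair of libraries. The WT library held 17357 Xist UMIs and no UMI of Ddx3y, Uty, Kdm5d or Eif2s3y, which lie on the Y chromosome, whereas the mutant libraries held 17 and 11 Xist UMIs and 1488 and 1349 Ddx3y UMIs. This goes against the WT label of a male mouse, and sex, animal and genotype cannot be told apart in any comparison with WT. Taf4 itself was at 4.68 CPM (UMIs of the gene per 1000000 UMIs) in WT beta cells, 7.55 CPM at 1 week and 3.52 CPM at 5 weeks, and since the 3′ reads may lie outside the deleted part, these values do not check the labels.

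Cells were assigned to classes by the share of their UMIs taken by 1 hormone. Beta cells had Ins2 at 20% or more with Gcg under 3%, alpha cells Gcg at 15% or more and delta cells Sst at 5% or more. In the 1-week library the limits were 5%, 8% and 1.5%, in barcodes of 5000 or more UMIs, which left out 1415 shallower barcodes. These limits gave 8269 beta, 2815 alpha, 619 delta and 295 other cells in WT. They gave 561, 175, 37 and 106 at 1 week, and 5557, 3248, 1241 and 981 at 5 weeks. Cells meeting more than 1 limit (2, 1 and 202 in the 3 libraries) were kept out. Beta cells held a median of 1656 UMIs in WT, 24764 at 1 week and 3899 at 5 weeks. Where 1-week levels are set beside those of another library below, condition cannot be told apart from class limits and depth. The alpha marker list, which includes Gcg, summed to 378037 CPM in WT alpha cells and 3037 CPM in WT beta cells. The delta list, which includes Sst, summed to 161461 CPM in WT delta cells and 359 CPM in WT beta cells. Gcg alone took 33.9% of the UMIs of WT alpha cells and Sst 15.3% of those of WT delta cells. These sums therefore mostly restate the class limits. The hormones took very different shares of each class. Ins1, Ins2, Iapp, Gcg, Sst, Ppy and Pyy together made up 68.0% of the UMIs of WT beta cells, 42.8% at 1 week and 66.5% at 5 weeks, against 41.5%, 26.1% and 48.0% in alpha cells and 32.9%, 18.9% and 30.8% in delta cells. A gene's CPM therefore depends on how much hormone RNA shares the cell, and levels below are given both as CPM of all UMIs and as CPM of the UMIs without the 7 hormones (hormone-free CPM).

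By the RefSeq gene table of GRCm38.p6, the build (mm10) used for alignment, 7 of the 10 genes lie together in the MHC region of chromosome 17. They are Tapbp (33919478 to 33929290), H2-K1 (33996012 to 34000619), Psmb9 (34182030 to 34187330), Tap1 (34187556 to 34197225), Psmb8 (34198195 to 34201454), Tap2 (34204479 to 34216321) and H2-D1 (35263094 to 35267497). B2m lies on chromosome 2 from 122147687 to 122153082, inside the span of Patl2, and Nlrc5 and Cd74 lie on other chromosomes. H2-K1 and H2-D1 are paralogs, and how well reads were split between them was not tested.

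Upstream sequence was at hand for 7 of the 10 genes. The windows of B2m and H2-D1 and the stretch that separates Psmb9 from Tap1 are shown, for the light chain, a heavy chain and peptide-supply genes. They are RefSeq sequences of GRCm38.p6, printed 5′ to 3′ on the strand of the named gene and ending at the base before its start. Capitals mark every match, on either strand, to GGG and CCC 5 bases apart (a loose form of the kappa B site), AANNGAAA (the core of an interferon-response element), TGACG (the core of the X2 box) or CCAAT (the core of the Y box).
B2m (chr2:122147437-122147686, plus strand): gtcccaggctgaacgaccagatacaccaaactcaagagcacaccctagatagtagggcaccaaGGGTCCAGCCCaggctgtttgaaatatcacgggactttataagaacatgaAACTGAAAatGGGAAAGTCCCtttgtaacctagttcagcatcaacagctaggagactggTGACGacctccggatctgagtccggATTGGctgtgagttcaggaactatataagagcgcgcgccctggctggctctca
H2-D1 (chr17:35262844-35263093, plus strand): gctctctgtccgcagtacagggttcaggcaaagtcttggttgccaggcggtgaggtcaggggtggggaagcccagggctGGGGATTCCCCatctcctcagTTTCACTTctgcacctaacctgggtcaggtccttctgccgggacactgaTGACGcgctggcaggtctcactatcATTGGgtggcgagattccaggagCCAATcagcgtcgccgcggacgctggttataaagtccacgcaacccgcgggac
Psmb9 to Tap1 (chr17:34187331-34187555, plus strand): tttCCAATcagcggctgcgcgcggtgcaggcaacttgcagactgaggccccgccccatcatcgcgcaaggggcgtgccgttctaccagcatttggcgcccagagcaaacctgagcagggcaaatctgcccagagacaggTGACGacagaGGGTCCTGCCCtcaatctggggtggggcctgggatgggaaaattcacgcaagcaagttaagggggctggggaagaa

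B2m and both heavy chains held all 4 motifs, and the kappa B form and the interferon-response core stood 2 bases apart in B2m and 10 apart in the heavy chains. That stretch is shown for the 3 genes, H2-K1 on the minus strand. The H2-K1 stretch lies inside the span given above for that gene, so its window was read from a start within that span.
B2m (chr2:122147550-122147570): AACTGAAAatGGGAAAGTCCC
H2-K1 (chr17:34000430-34000458): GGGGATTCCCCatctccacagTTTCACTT
H2-D1 (chr17:35262923-35262951): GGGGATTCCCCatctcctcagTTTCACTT
In the 250-base windows upstream of the starts used for H2-K1 and H2-D1, 166 of 190 aligned bases were equal, which is 87.4%. The 225 bases that separate Psmb9 from Tap1 serve as the upstream side of both genes, and they held the other 3 motifs without the interferon-response core. The Tapbp window held CCAAT alone of the 4, and the Psmb8 window held none of them. Of 27025 windows of the same length across all genes, 12.1% held the kappa B form, 21.6% AANNGAAA, 17.8% TGACG and 34.5% CCAAT, so a match describes the sequence and shows no binding.

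B2m, the light chain shared by all classical class I molecules, was scarce in endocrine cells. In beta cells it was at 10.4 CPM (8.89 to 12.1, 167 UMIs) in WT, 42.8 CPM (39.6 to 46.3, 641 UMIs) at 1 week and 23.6 CPM (21.8 to 25.5, 651 UMIs) at 5 weeks. On the hormone-free scale the same cells were at 32.6, 74.9 and 70.5 CPM, so both mutant libraries lay above WT and close to each other. Alpha cells were at 30.6 hormone-free CPM in WT, 107 at 1 week and 44.3 at 5 weeks, and delta cells at 40.8, 89.2 and 42.9.

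The order of the classes for B2m thus differed from library to library. In WT the intervals of the 3 endocrine classes overlapped. At 1 week alpha cells had the highest value, with an interval of 95.1 to 120 hormone-free CPM that lay above that of beta cells (69.2 to 80.9) and overlapped that of delta cells (65.1 to 119). At 5 weeks beta cells were highest, with 65.2 to 76.1 against 37.6 to 51.8 in alpha and 31.7 to 56.9 in delta cells.

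In beta cells, the ratio of 5 weeks over WT for B2m was 1.18 on the log2 scale (0.93 to 1.44), a 2.27-fold higher CPM. It lay between 1.01 and 1.27 in 9 settings of the processing. In beta cells of 2000 to 5000 UMIs, the B2m level was 9.97 CPM (7.98 to 12.3) for WT and 24.2 CPM (21.0 to 27.6) for 5 weeks. In alpha cells the log2 ratio was 0.37 (-0.13 to 0.89) and in delta cells 0.12 (-0.81 to 1.17), and neither interval excludes 0.

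B2m was far more abundant in barcodes with macrophage or endothelial markers than in the endocrine classes, but not in the WT other cells, which held it at 13.6 CPM. In those WT other cells beta markers summed to 417184 CPM and acinar markers to 134920 CPM. Barcodes with at least 3 macrophage and dendritic markers, 20 in the 1-week library, held B2m at 1833 CPM, and the 262 such barcodes with endothelial markers at 5 weeks held it at 807 CPM. Of these 262, 22 met the beta, 7 the alpha and 8 the delta limits. The genes' shares among themselves, which do not depend on hormone RNA, differed in the same way. B2m made up 4.71% of the UMIs of B2m, H2-K1 and H2-D1 in WT beta cells, 5.52% at 1 week and 6.80% at 5 weeks, and between 3.75% and 9.07% in alpha and delta cells. It made up 31.4% (27.8 to 35.1) in the macrophage-marker barcodes at 1 week and 33.3% (30.5 to 36.2) in the endothelial-marker barcodes at 5 weeks. Within 1 library, then, transcripts of the light chain were outnumbered by heavy-chain transcripts several times more in endocrine cells than in endothelial-marker barcodes.

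Endothelial markers were higher in the endocrine classes at 5 weeks than in WT. The 9 endothelial markers summed to 5.05 CPM in WT beta cells, 5.48 CPM at 1 week and 18.1 CPM at 5 weeks, and all 9 were detected in the first and last. In alpha cells they summed to 12.5, 8.33 and 23.3 CPM. Delta cells of WT held 20.5 CPM of them, and delta cells of 5 weeks 84.9 CPM, at hormone-free B2m levels of 40.8 and 42.9 CPM. After removal of every barcode with a UMI of an endothelial, macrophage and dendritic, B and T or mesenchymal marker, the beta-cell log2 ratio of B2m was 1.13. The removal leaves in barcodes with RNA of such cells in which no marker UMI was sampled. The part of endothelial RNA in the B2m levels was not tested.

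H2-K1 was the most abundant of the 10 genes by UMIs in WT beta cells. Its beta-cell level was 135 CPM (130 to 141) in WT, 439 CPM (428 to 450) at 1 week and 187 CPM (182 to 192) at 5 weeks, which is 423, 768 and 559 hormone-free CPM. For H2-D1 the 3 beta-cell levels were 75.7 (71.5 to 80.1), 294 (285 to 302) and 136 CPM (132 to 141), or 237, 514 and 407 hormone-free CPM. Both heavy chains were thus highest at 1 week and lowest in WT, on either scale and without overlap of the intervals. The 1-week cells also differed in class limits and depth, which cannot be told apart from condition in this order. Within the study's limits on cells the log2 ratio of 5 weeks over 1 week for H2-K1 turned to 0.64, from 18 UMIs at 1 week. Acinar markers, at 4971 CPM in WT beta cells, 15.9 CPM at 1 week and 565 CPM at 5 weeks, ran in the opposite order, as they did in alpha cells (10948, 7.52 and 1570 CPM) and delta cells (14845, 6.43 and 2589 CPM). Their part in the class I levels was not tested.

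In alpha cells H2-K1 was at 320, 548 and 362 hormone-free CPM in WT, 1 week and 5 weeks, and H2-D1 at 274, 525 and 417. In delta cells H2-K1 was at 544, 632 and 467, and H2-D1 at 503, 599 and 561. The 1-week library was the highest in all 3 classes for both genes, although in delta cells its interval for H2-K1 (565 to 706) overlapped that of WT (463 to 635), and so did that for H2-D1.

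The balance of the 2 heavy chains differed between classes and libraries. H2-D1 made up 35.9% (34.3 to 37.5) of their UMIs in WT beta cells, 40.1% (39.2 to 41.0) at 1 week and 42.2% (41.1 to 43.2) at 5 weeks. Under the 1-week limits the 5-week beta-cell share was 39.9% (38.5 to 41.3), which overlapped that of 1 week. In alpha cells the share was 46.2%, 48.9% and 53.5%, and in delta cells 48.1%, 48.6% and 54.6%. Beta cells therefore had the lowest H2-D1 share in each library, and in beta and alpha cells the 5-week share lay above the WT share without overlap of the intervals.

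For the peptide transporter, counts were low. Tap1 in beta cells had 19 UMIs in WT, 110 at 1 week and 39 at 5 weeks, or 3.70, 12.9 and 4.22 hormone-free CPM. In alpha cells Tap1 was at 3.55, 17.5 and 10.2 hormone-free CPM, and the log2 ratio of 5 weeks over WT of 1.36 rests on 36 and 5 UMIs, with an interval of 0.00 to 3.06. Tap1 had no UMI in the 619 WT delta cells, which allows up to 6.84 CPM of all UMIs.

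Tap2 in beta cells was at 15.01, 28.9 and 14.9 hormone-free CPM in WT, 1 week and 5 weeks. In alpha cells it was at 14.2, 16.7 and 21.3, with overlapping intervals. The transporter genes therefore shared a beta-cell pattern in which the 1-week level lay about as far above WT as above 5 weeks, and the log2 ratios of 5 weeks over WT were 0.26 (-0.57 to 1.13) for Tap1 and 0.060 (-0.35 to 0.48) for Tap2.

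Tapbp, the tapasin gene, went another way. WT beta cells held 286 UMIs of it, 17.8 CPM (15.8 to 20.02). Those of 1 week held 776, or 51.8 CPM (48.2 to 55.6), and those of 5 weeks 210, or 7.62 CPM (6.62 to 8.72). The hormone-free levels were 55.7, 90.7 and 22.7 CPM, so Tapbp was above WT at 1 week and below it at 5 weeks. In alpha cells it was at 37.0, 49.1 and 32.9 hormone-free CPM and in delta cells at 71.4, 113 and 51.9, where the WT and 5-week intervals overlapped.

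The log2 ratio of 5 weeks over WT for Tapbp in beta cells was -1.23 (-1.49 to -0.97). It lay between -1.39 and -1.10 in 9 settings, 2-fold or more lower in each. In beta cells of 2000 to 5000 UMIs the levels were 15.5 CPM (13.02 to 18.4) for WT and 7.87 CPM (6.13 to 9.94) for 5 weeks. The ratio was -0.34 (-0.82 to 0.17) in alpha cells and -0.41 (-1.16 to 0.38) in delta cells. A lncRNA, Gm19412, overlaps the first bases of Tapbp in the gene table.

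**Figure D1:**
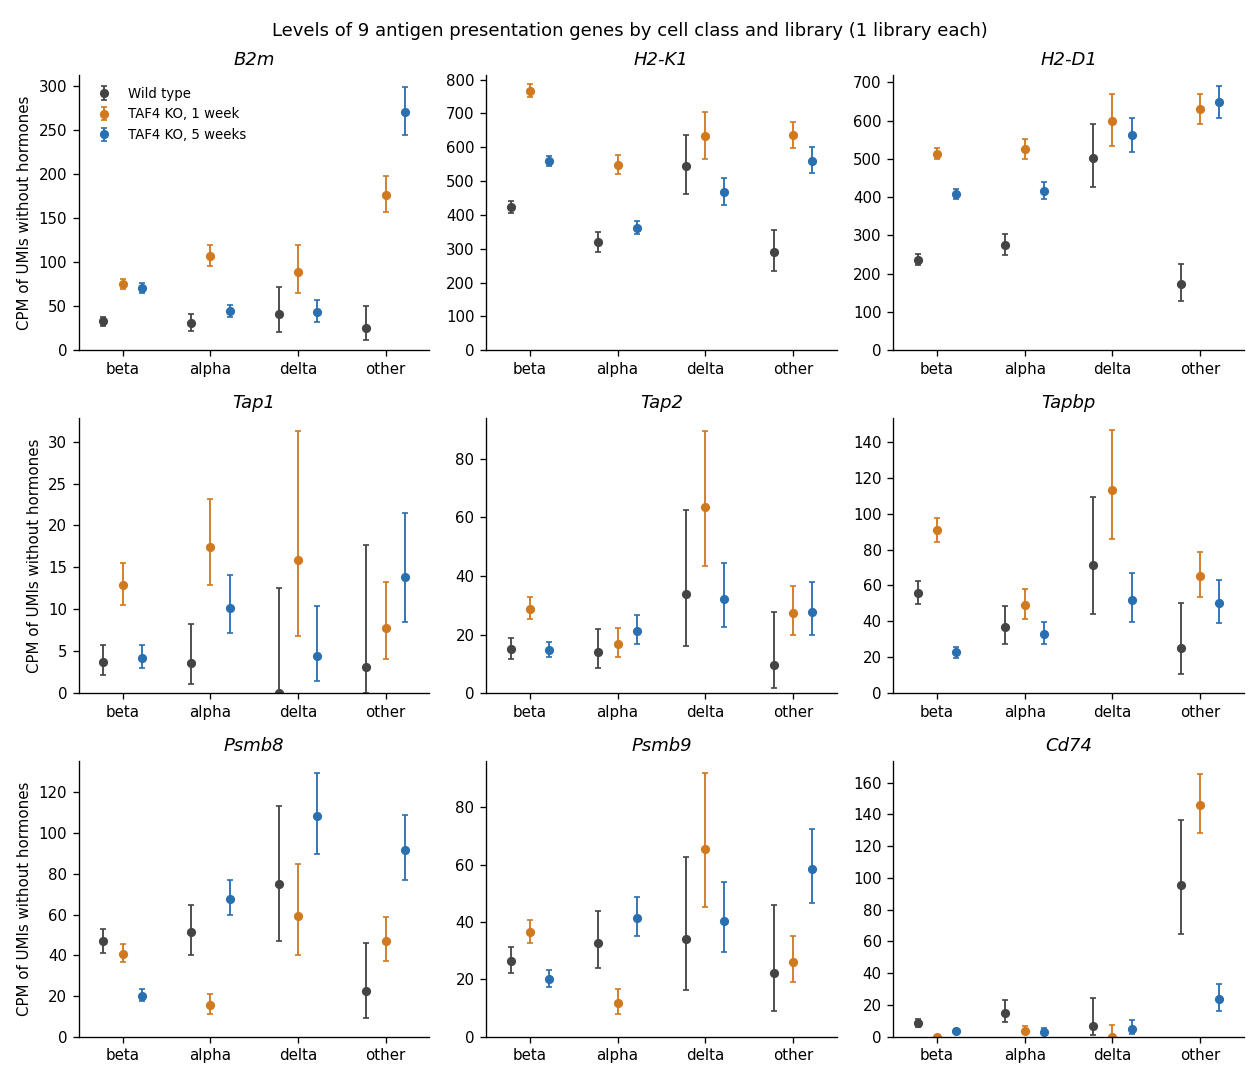
Hormone-free CPM (vertical axis, linear, from 0) of 9 of the 10 genes in beta, alpha, delta and other cells of the WT (grey), 1-week (orange) and 5-week (blue) libraries. Points are summed counts of 1 library and bars 95% Poisson intervals. H2-K1 and H2-D1 are highest at 1 week in beta and alpha cells, Tapbp is lowest at 5 weeks in beta cells, and Psmb8 is lowest at 5 weeks in beta cells but at 1 week in alpha cells.

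Of the immunoproteasome subunits, Psmb8 in beta cells was at 14.96 CPM (13.1 to 17.0, 240 UMIs) in WT, 23.3 CPM (20.9 to 25.9, 349 UMIs) at 1 week and 6.71 CPM (5.78 to 7.75, 185 UMIs) at 5 weeks. Hormone-free, these were 46.8, 40.8 and 20.03 CPM, so the 1-week level was above WT on 1 scale and below it, with overlapping intervals, on the other. The 5-week level was lowest on both, and the log2 ratio of 5 weeks over WT was -1.16 (-1.44 to -0.87). It lay between -1.32 and -0.96 in 9 settings, and was 2-fold or more lower in 8 of them.

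Alpha and delta cells differed from beta cells in Psmb8. In alpha cells the hormone-free level was 51.2 CPM (40.1 to 64.5), 15.6 (11.3 to 21.1) and 67.9 (59.5 to 77.0) for WT, 1 week and 5 weeks. Delta cells were at 74.8 (46.9 to 113), 59.5 (40.1 to 84.9) and 108 (89.8 to 129). The lowest level was thus the 5-week level in beta cells and the 1-week level in alpha cells.

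Psmb9 in beta cells was at 26.5, 36.5 and 20.03 hormone-free CPM in WT, 1 week and 5 weeks, and in alpha cells at 32.7, 11.6 and 41.5. The log2 ratio of 5 weeks over WT in beta cells was -0.34 (-0.66 to -0.01) on CPM of all UMIs. It was at 0.033 after thinning each cell to 500 UMIs, so its direction does not hold in every setting.

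The exchange of immunoproteasome for constitutive subunits can be read as a share, free of the hormone denominator. Psmb8 made up 11.9% (10.6 to 13.4) of the UMIs of Psmb8 and Psmb5 in WT beta cells, 16.7% (15.1 to 18.3) at 1 week and 6.64% (5.74 to 7.63) at 5 weeks. In alpha cells it made up 14.5% (11.5 to 17.9), 8.76% (6.41 to 11.6) and 17.5% (15.6 to 19.7). In delta cells it made up 22.7% (14.8 to 32.3), 21.4% (14.9 to 29.2) and 32.9% (28.1 to 37.9). Beta cells thus went from the higher share of beta and alpha cells at 1 week to the lower one at 5 weeks.

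Psmb9 made up 5.16% of the UMIs of Psmb9 and Psmb6 in WT beta cells, 11.6% at 1 week and 4.09% at 5 weeks, with 1-week and WT intervals of 10.4 to 12.8 and 4.35 to 6.07. In alpha cells its share was 6.81%, 7.08% and 8.70%, with overlapping intervals, and in delta cells 6.90%, 21.4% and 9.07%. The partner subunits were nearly level in beta cells of WT and 5 weeks: Psmb5 had a log2 ratio of -0.23 (-0.31 to -0.14) and Psmb6 of 0.012 (-0.06 to 0.08). At 1 week they were lower on the hormone-free scale, with Psmb5 at 345 CPM in WT and 204 CPM at 1 week and Psmb6 at 487 and 279 CPM, so the higher 1-week share of Psmb8 came with a Psmb8 level that was not above WT on that scale.

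The third immunoproteasome subunit, Psmb10, which is not among the 10 genes, did not follow Psmb8 in every class. Its share of the UMIs of Psmb10 and Psmb7 was 30.0% in WT beta cells, 31.0% at 1 week and 21.1% at 5 weeks. In alpha cells it was 29.8%, 31.0% and 24.3%, and in delta cells 45.9% (29.5 to 63.1), 38.9% and 21.1% (15.4 to 27.7). In alpha and delta cells the 5-week value was thus the lowest for Psmb10 and the highest for Psmb8, although the alpha intervals of Psmb10 overlapped. For Psmb8 the 5-week interval overlapped that of WT in alpha cells and those of WT and 1 week in delta cells.

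**Figure D2:**
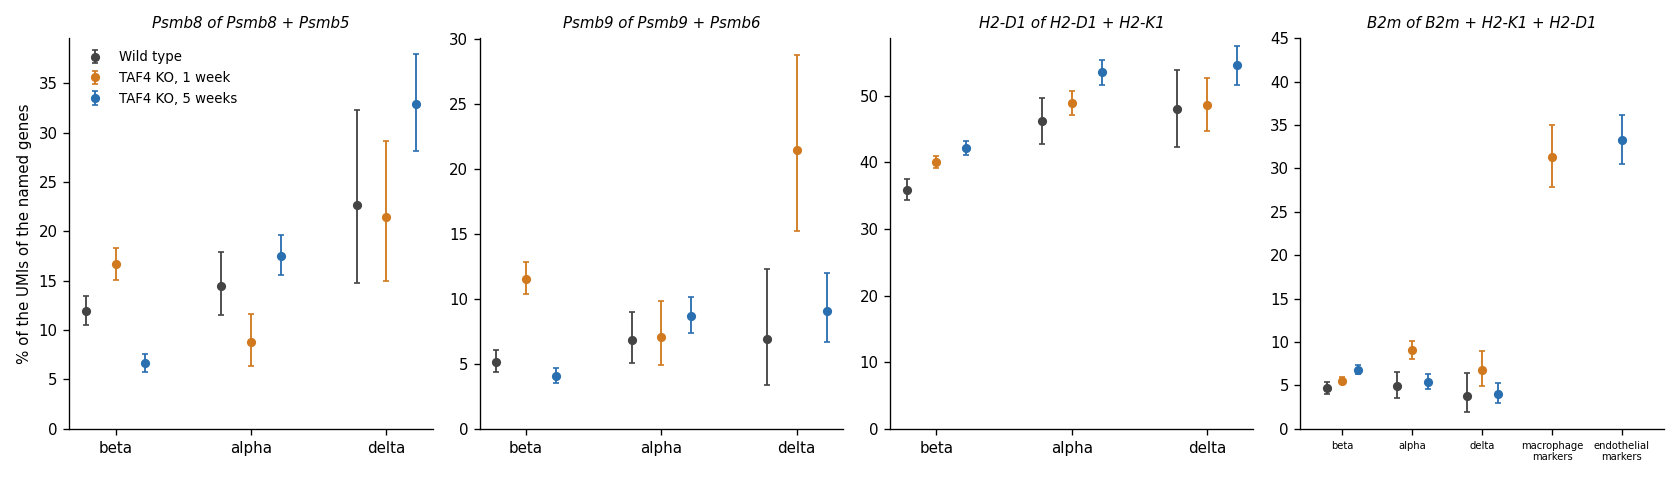
Share (percent, linear axis from 0) of Psmb8, Psmb9, H2-D1 and B2m among the UMIs of the genes named above each panel, by class and library. Bars are exact 95% binomial intervals of 1 library each. The fourth panel adds the barcodes with macrophage and dendritic markers at 1 week and with endothelial markers at 5 weeks, where B2m took 31.4% and 33.3%.

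Nlrc5 was at or near 0 throughout. Beta cells of WT and 1 week held 1 UMI each, the other cells of 1 week held 1, and the remaining classes of those libraries held none. The intervals of the beta-cell levels reached up to 0.347 CPM in WT and 0.372 CPM at 1 week, and no difference was detectable at this depth.

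Cd74 lay mainly outside the endocrine classes at 1 week but not in the other libraries. Its 320 UMIs at 1 week lay in 35 barcodes, with 90.6% of them in the 10 highest, and all 6 barcodes with 5 or more Cd74 UMIs carried macrophage and dendritic markers. The 561 beta cells of that library held 0 Cd74 UMIs, which allows 0.2004 CPM. WT held 96 UMIs in 62 barcodes, of which 43 UMIs were in beta, 21 in alpha and 2 in delta cells, and 12.5% were in barcodes with markers of other cells. At 5 weeks 85 UMIs lay in 44 barcodes, with 32, 11 and 5 UMIs in the same classes, and 45.9% were in barcodes with markers of other cells. Of the 4 barcodes with 5 or more Cd74 UMIs at 5 weeks, 3 carried macrophage and dendritic markers. Of the 32 UMIs in beta cells, 9 lay in 2 barcodes with such markers.

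WT alpha cells held 21 Cd74 UMIs, or 8.73 CPM (5.40 to 13.3), and those of 5 weeks 11, or 1.62 CPM (0.811 to 2.91). Beta cells held 43 and 32, or 2.68 CPM (1.94 to 3.61) and 1.16 CPM (0.794 to 1.64). The Cd74 level was lower at 5 weeks in both classes, with log2 ratios of -2.43 (-3.63 to -1.31) and -1.21 (-1.92 to -0.51). The 13 macrophage and dendritic markers went from 75.8 down to 9.54 CPM in beta cells between these libraries, but were nearly level in alpha cells at 50.7 and 45.5 CPM. In beta cells 10 of the 13 were detected in WT and 11 at 5 weeks. In WT beta cells 990 of their 1216 UMIs were C1qa and 203 Fcer1g, while Adgre1 and Itgax were at 0 and Csf1r and Ptprc at 1 UMI each. Their part in the beta-cell Cd74 level was not tested.

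The comparison of 5 weeks with WT asks how the pathway as a whole stood in each endocrine class once Taf4 had been absent from beta cells for weeks. The 9 class I genes summed to 4308 UMIs in WT beta cells, which is 269 CPM, and to 10332 UMIs or 375 CPM in those of 5 weeks. Their log2 ratio was 0.48 (0.43 to 0.53). Alpha cells went from 446 to 518 CPM with a ratio of 0.22 (0.12 to 0.32), and delta cells from 874 to 906 CPM with a ratio of 0.052 (-0.11 to 0.22). The median log2 ratio over all genes of 100 or more UMIs was 0.16, 0.04 and 0.10 in the 3 classes, and relative to it the beta-cell sum was at 0.32. H2-K1 and H2-D1 made up most of the sum, which therefore hides the split between heavy chains with B2m on the higher side and Tapbp with Psmb8 on the lower side.

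Single genes were counted as called at a 2-fold or larger difference among genes with 100 or more UMIs in both groups together. In beta cells 7 of the 10 genes reached that count, of which 1, B2m, was 2-fold or more higher at 5 weeks and 2, Tapbp and Psmb8, 2-fold or more lower. Over all 9148 genes tested in beta cells, 6.09% were called higher and 4.38% lower. In alpha cells none of 6 members was called in either direction, where 2.98% of 5814 genes were called higher and 1.29% lower. In delta cells none of 3 was called, where 4.84% of 2357 genes were higher and 1.57% lower.

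**Figure D3:**
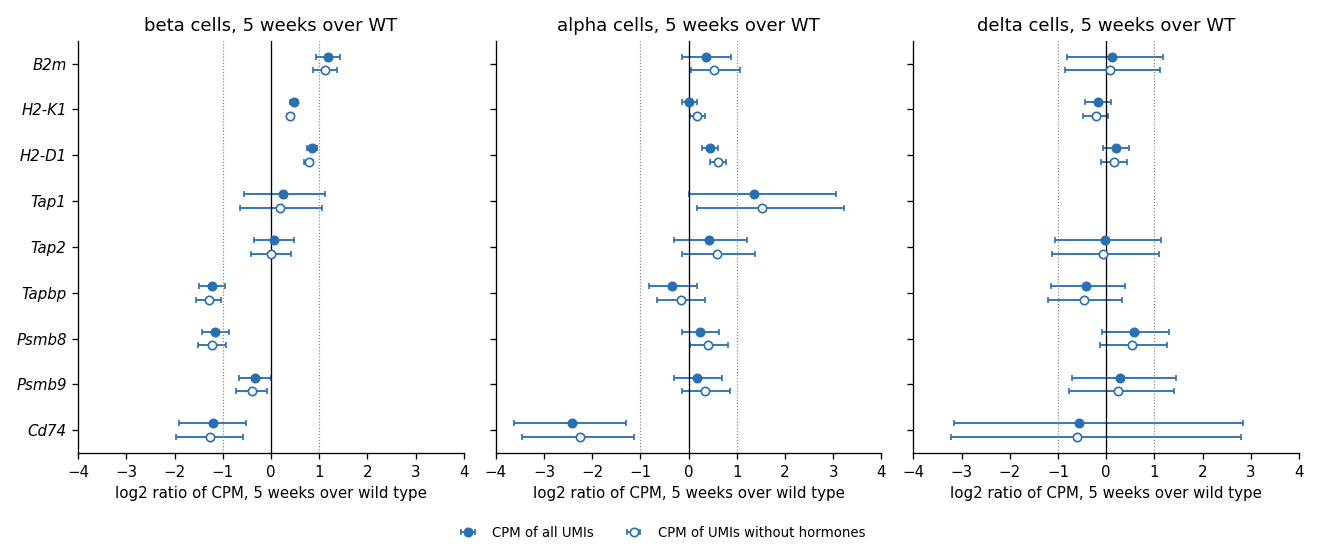
Log2 ratios (horizontal axis) of 5 weeks over WT for 9 genes in beta, alpha and delta cells, with exact 95% intervals for counting error. Filled points use CPM of all UMIs and open points hormone-free CPM, and dotted lines mark 2-fold. B2m lies right of the 2-fold line and Tapbp and Psmb8 left of it in beta cells, while the alpha and delta intervals of the 3 genes reach inside the lines.

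The comparison of 5 weeks with 1 week, both mutant, asks how the pathway stood at both times without the WT library. It was made in beta cells under the 1-week limits in both libraries, which left 561 cells at 1 week and 1976 at 5 weeks. The class I sum had a log2 ratio of -1.43 (-1.47 to -1.38), from 895 CPM down to 332 CPM. Most of this was shared by the whole table: the median log2 ratio of all 9203 genes was -1.09, and 55.7% of them were 2-fold or more lower and 1.35% higher. Of 8 members 7 were 2-fold or more lower, and this count says little beside that share.

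Without the hormones, which took 42.8% of the UMIs at 1 week and 68.6% at 5 weeks under these limits, the class I sum had a log2 ratio of -0.57 (-0.61 to -0.52) and the median gene one of -0.23. On this scale 4 of 8 members were 2-fold or more lower and none higher, against 9.54% and 4.69% of all genes. The 4 were Tapbp at -2.02 (-2.31 to -1.74), Tap1 at -1.64 (-2.37 to -0.97), Tap2 at -1.20 (-1.61 to -0.80) and Psmb8 at -1.15 (-1.49 to -0.82). For Tapbp, the ratio on CPM of all UMIs turned from -2.88 to 0.16 within the study's limits on detected genes and mitochondrial UMIs, where 1 week held 1 Tapbp UMI. B2m was at -0.028 (-0.21 to 0.16), H2-K1 at -0.50 (-0.56 to -0.43) and H2-D1 at -0.51 (-0.58 to -0.43).

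The members thus spread over a wide range, with the loading and transport genes furthest below the median gene and the light chain above it. Within the same limits the ratio of the sum on all UMIs was -0.072, from 58 UMIs at 1 week. The same comparison in alpha cells is not reported, since the class did not hold like cells in both libraries: under the 1-week limits the 131 alpha barcodes of 5 weeks held 385563 CPM of beta markers against 10252 CPM in those of 1 week.

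**Figure D4:**
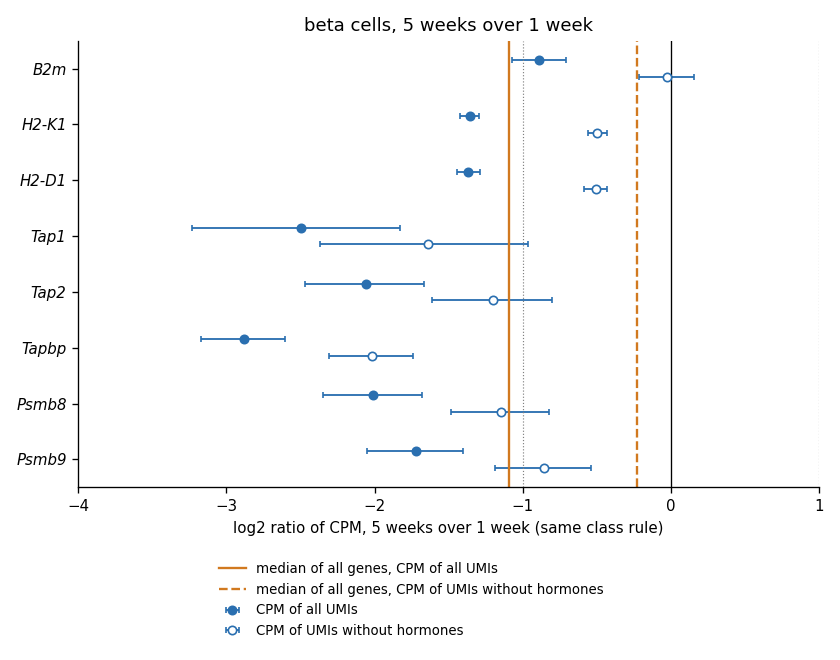
Log2 ratios (horizontal axis) of 5 weeks over 1 week in beta cells under the same class limits, with exact 95% intervals, for 8 genes. Filled points use CPM of all UMIs and open points hormone-free CPM, and the solid and dashed orange lines mark the median of all genes on each scale, -1.09 and -0.23. On each scale B2m lies right of that scale's median, and Tap1, Tap2, Tapbp and Psmb8 lie left of it.

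Between classes of 1 library the hormone share differed, so the classes were compared hormone-free. The class I sum in WT was at 840 CPM (815 to 865) hormone-free in beta, 764 (719 to 811) in alpha and 1302 (1175 to 1439) in delta cells. At 5 weeks it was at 1119, 997 and 1308 CPM and at 1 week at 1566, 1290 and 1637 CPM. At 1 week the beta and delta intervals, 1540 to 1593 and 1527 to 1753, overlapped.

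Of 6 members tested between WT delta and beta cells, 1, H2-D1, was 2-fold or more higher in delta cells on the hormone-free scale, at a log2 ratio of 1.09 (0.83 to 1.34), against 5.5% of 6311 genes. At 5 weeks 4 of 7 were, against 8.63% of 8437 genes: Psmb8 at 2.43 (2.09 to 2.77), Tapbp at 1.19 (0.75 to 1.62), Tap2 at 1.11 (0.54 to 1.65) and Psmb9 at 1.01 (0.50 to 1.48). At 1 week 1 of 8 was, Tap2 at 1.136 (0.56 to 1.67), against 6.53% of 8362 genes.

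Between alpha and beta cells of WT, none of 6 members was 2-fold or more higher in alpha cells hormone-free, against 2.78% of 6842 genes. At 1 week 2 of 8 were 2-fold or more lower in alpha cells, Psmb8 and Psmb9, against 15.3% of 8816 genes. At 5 weeks 2 of 7, the same 2 genes, were 2-fold or more higher, against 6.82% of 8993 genes.

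Other genes of the pathway were counted from lists chosen by function, in beta cells for 5 weeks over WT, where 6.09% of all genes were called higher and 4.38% lower. Of 10 loading and trimming genes, all 10 reached 100 UMIs, none was called, 4 were higher and 6 lower by less than 2-fold. The highest were Calr and Pdia3, chaperones that also belong to the peptide-loading complex, at log2 ratios of 0.96 (0.91 to 1.02) and 0.79 (0.73 to 0.86). The lowest were Psme1, a proteasome activator subunit, at -0.99 (-1.16 to -0.81) and Erap1, a peptide-trimming peptidase, at -0.70 (-1.04 to -0.36). Members of 1 functional list thus lay on both sides of the median gene.

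Of 14 other class I genes in the tables, 6 reached 100 UMIs and none was called. H2-T22 was highest at 0.62 (0.27 to 0.98) and H2-Q2 and Mr1 lowest at -0.83 (-1.003 to -0.65) and -0.88 (-1.68 to -0.09). Of 19 regulators, 14 reached 100 UMIs, none was called higher and 1 was called lower, beside 4.38% of all genes. Irf7 and Rela had the highest ratios, 1.13 (0.23 to 2.14) and 0.95 (0.47 to 1.44), and Irf9 and Rfx5, a subunit of the complex that binds the X box, the lowest, -1.08 (-1.70 to -0.48) and -1.07 (-1.58 to -0.57), of which Irf7 and Irf9 did not reach 100 UMIs.

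Interferon-related lists showed no common direction. Of 9 interferon receptors and kinases, 7 reached 100 UMIs and 2 were called higher, beside 6.09% of all genes. They were Socs3, a feedback inhibitor of cytokine signalling, at 1.59 (1.15 to 2.05) and the receptor chain Ifngr2 at 1.12 (0.54 to 1.74). Of 25 interferon-stimulated genes in the tables, 7 reached 100 UMIs, 1 was called higher, beside the same 6.09%, and 4 were lower by less than 2-fold. Irgm1 and Rsad2 were highest at 1.88 (1.02 to 2.84, from 82 UMIs at 5 weeks and 13 in WT, below the count needed) and 1.35 (0.93 to 1.79), and Ifit1 and Bst2 lowest at -0.81 (-1.43 to -0.19) and -0.80 (-1.33 to -0.28).

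Of 11 class II genes in the tables, 1 reached 100 UMIs, the protease Lgmn at 0.71 (0.26 to 1.17). H2-DMa, with 70 and 17 UMIs, was at 1.26 (0.48 to 2.12) and H2-Eb1 at -1.06 (-2.19 to 0.05). None of the 7 chemokines reached 100 UMIs. Of the inhibitory and stress ligands, Cd47 was at 0.47 (0.36 to 0.57) and Cd274 at -0.26 (-0.84 to 0.33). The median log2 ratio of the 7 members tested was 0.06, beside 0.16 over all genes.

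Among 6969 genes, those whose profile over the 12 class and library groups was most like that of B2m, by the mean absolute difference in centred log2(CPM + 10), were Ybx3 at 0.32, Eno1 at 0.32, Nfe2l2 at 0.34, G3bp1 at 0.34 and Git1 at 0.34. H2-K1 ranked 223 at 0.45 and H2-D1 367 at 0.47, while Psmb8 ranked 5992 at 0.85. The groups share libraries and hormone shares, so this likeness is a description of these 12 values only.

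The other cells, which met no hormone limit, were mixed and differed in make-up between libraries. Acinar markers were found in 246 of 295 of them in WT and in 393 of 981 at 5 weeks, and endothelial markers in 1 and 225. By summed UMIs, acinar markers were at 134920 CPM in the WT other cells but at 1187 CPM in those of 5 weeks. Beta markers were above them in both, at 417184 and 409307 CPM. The acinar sum at 5 weeks was also below that of the alpha and delta cells of the same library. B2m in the other cells was at 25.4 hormone-free CPM in WT, 177 at 1 week and 270 at 5 weeks, and Cd74 at 95.4, 146 and 23.6. At 1 week 4 of the 106 other cells carried macrophage and dendritic markers, and these 4 held 177 of the 297 B2m UMIs and 241 of the 245 Cd74 UMIs of that class. Different cell types make up this class in each library, so its levels are given as values only. Fewer cells of a type and less RNA per cell cannot be told apart in such a sum.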

How the data were processed

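Single-cell RNA-seq was available for 3 islet libraries, 1 per condition. The deposited tables hold counts (UMIs by gene and barcode) with no normalization. The authors processed the reads with Cell Ranger 3.1 on mm10. In WT only, cells rich in hormones of different types were removed, DoubletFinder was run and the number of cells was reduced to 12000, so doublets were treated differently in the libraries, and no doublet caller was run here. Genes, lists and tests were chosen with earlier results of these data known.

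Counts were summed per class and library and divided by the summed UMIs (CPM), with and without 7 hormone genes. Intervals at 95% were exact Poisson for levels, Clopper-Pearson for shares and exact conditional for ratios. A count of 0 was read as allowing 3 counts. PCR duplicates were collapsed by UMI upstream. Genes with 100 or more UMIs in both groups together were tested for a 2-fold difference, and no p-value was computed. The ratio and its interval were run on simulated Poisson counts, the model that the interval assumes. The simulation held no variation between cells, animals or libraries, so it checks the arithmetic only. Genes named from other lists were the 2 highest and 2 lowest ratios with 20 or more UMIs. Alternatives covered the denominator, cell weighting, thinning to 500 UMIs, class limits 1.5 times as high, cells of 200 to 1500 genes and under 15% mitochondrial UMIs, marker barcodes, the UMI minimum and the median gene. Python 3.11.15, numpy 2.4.6, scipy 1.17.1 and pandas 2.3.3 were used.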

Additional observations from a re-analysis of the deposited data

Results flagged for a closer look

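The contrast of alpha over beta cells pointed in opposite directions at 1 week and at 5 weeks for 3 genes, with the whole interval on 1 side of 0 on both CPM scales. As hormone-free log2 ratios, Psmb8 was at -1.38 at 1 week and 1.76 at 5 weeks, Psmb9 at -1.65 and 1.05, and Tapbp at -0.88 and 0.53. With 1 library per time point, the difference between them was not tested, and depth, class limits and time cannot be told apart here.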

How the results depend on the processing

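For the class I sum over the beta, alpha and delta comparisons with WT and the beta comparison of 5 weeks with 1 week, 19 alternative values moved by less than the main interval, 14 moved by more and 0 were counted as reversed. In delta cells, where the main interval included 0, the ratio nevertheless ran from -0.050 to 0.091 and was below 0 in 1 of 9 settings. In beta cells, 5 weeks over WT, the main log2 ratio of 0.48 became 0.41 without hormone UMIs, 0.57 as the mean of each cell's CPM, 0.53 after thinning, 0.59 within the study's limits on cells, 0.32 relative to the median gene and 0.72 in cells of 1000 to 5000 UMIs, an alternative chosen after seeing the data. In alpha cells it became 0.38 without hormones. In beta cells, 5 weeks over 1 week, -1.43 became -0.57 without hormones, -1.48 as the mean of each cell's CPM, -0.072 within the study's limits, -1.54 without marker barcodes, -0.34 relative to the median gene and, both chosen after seeing the data, -1.61 in cells of 5000 to 20000 UMIs and -1.22 with Ins2 at 20% or more in both. Of the values for single genes, 237 stayed, 51 moved and 4 were counted as reversed. The first was Psmb9 in beta cells over WT, at 0.033 after thinning. The others were in beta cells over 1 week: B2m, at 0.20 relative to the median gene, and H2-K1 and Tapbp. These last were at 0.64 and 0.16 within the study's limits, which left 18 and 1 UMIs at 1 week. Further ratios over WT also fell on both sides of 0 without being counted so. They were Tap1 and Tap2 in beta cells, H2-K1, Tap2 and Psmb9 in alpha cells, and B2m and Tap2 in delta cells. The causes were not tested. No paired analysis was possible because each condition has 1 library. Low UMI counts limit Tap1, Tap2, Nlrc5 and delta cells most.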
